A study of Mus musculus with 4 samples.

Results

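The interferon receptor chains and the transcription factors that act beneath them were followed through CD45-sorted brain cells of mice after cardiac arrest (CA). The set held 8 of the 32285 genes in the deposited count tables, taken by gene symbol, and all 8 were found: the receptor chains Ifnar1, Ifnar2, Ifngr1 and Ifngr2, the signal transducer Stat2, and the interferon regulatory factors Irf9, Irf1 and Irf7. The rule used symbols alone, but the members themselves were chosen with earlier results of these data known. There were 4 groups of wild-type C57Bl/6 mice, all taken on day 3 after surgery: aged mice (18 to 20 months) after CA, aged mice after sham surgery, young mice (3 to 6 months) after CA, and young mice after sham surgery. CA was brought on with potassium chloride and followed by resuscitation, and sham mice went through the surgery alone. Each group was 1 library pooled from 3 mice, and the mice within a pool cannot be told apart. Brains were perfused, broken up mechanically, enriched for immune cells on Percoll, sorted for the leukocyte surface protein CD45 and put through droplet-based 3′ sequencing, in which each captured RNA molecule is counted once as a unique molecular identifier (UMI).

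Interferon alpha and interferon beta (type I) signal through a receptor made of Ifnar1 and Ifnar2, and interferon gamma signals through Ifngr1 and Ifngr2. Kinases bound to the type I receptor activate Stat2, which joins Irf9 in a complex that switches on antiviral genes. Irf1 and Irf7 are transcription factors whose own genes respond to interferon, and Irf7 in turn drives the genes of type I interferons. Microglia, the resident macrophages of the brain, are known to respond to both kinds of interferon.

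The libraries held 70924569 UMIs over 6794 barcodes (aged CA), 44277472 over 7700 (aged sham), 115892682 over 10794 (young CA) and 72648041 over 9038 (young sham). Barcodes under 500 UMIs, under 200 genes or above 10% mitochondrial UMIs were left out, and the median depth of the kept barcodes was 10432.5, 3130, 9857 and 6368 UMIs in the same order. Aged sham stood apart by its low depth, by 913 CPM of haemoglobin (CPM, UMIs per 1000000 counted) against 1.05 to 66.6 CPM in the other libraries, and by 842 barcodes with markers of more than 1 class against 53 to 138. A pair of libraries shared 15 to 32 cell barcodes. The members gave 48637 to 167041 UMIs per library.

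Barcodes were put into classes by lists of marker genes, and a class is called microglia-like, monocyte-like and so on because no annotation of cells by the authors was used. Microglia-like barcodes numbered 4905 in aged CA, 5926 in aged sham, 9265 in young CA and 8229 in young sham. Their 10 leading genes held 6 microglial markers and 0 markers of another class, and the microglial markers together stood at 10531 CPM in aged CA, 21667 CPM in aged sham, 16199 CPM in young CA and 25998 CPM in young sham. Ptprc, the gene of CD45, stood at 405 to 496 CPM in microglia-like cells and at 7.37 to 27.4 CPM in neuron-like barcodes. Levels below are UMIs summed over a class in a library, as CPM of that class's total. With 1 library per group nothing could be tested: intervals are 95%, cover counting error only, and say nothing of the spread between mice.

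The members lie in a few places of the mouse genome. Ifnar2 (chr16:91372783-91405589), Ifnar1 (chr16:91485238-91507441) and Ifngr2 (chr16:91547072-91565623) are neighbours on the plus strand of chromosome 16 in GRCm38, with Il10rb, a chain of the receptors for interleukin 10 and interferon lambda, between the first pair. Ifngr1 (chr10:19591949-19610229) and Stat2 (chr10:128270559-128292849) lie on chromosome 10, Irf1 (chr11:53770014-53778374) on 11 and Irf9 (chr14:55603571-55610030) on 14, all on the plus strand, and Irf7 (chr7:141262706-141266481) lies on the minus strand of chromosome 7. The start of a gene can carry letters that interferon-activated factors are known to read, and 2 such motifs were searched on both strands from 250 bases before to 50 bases after each annotated start. The letters GAAA, any 2 bases and GAAA again are the core of the element read by the complex that holds Stat2 and Irf9, and TTCNNNGAA is an element read by pairs of STAT proteins. The windows of the members with the largest differences after CA, Stat2 and Irf7, are shown with that of Irf1, from RefSeq on GRCm38.p6, with matched letters in capitals.
Stat2, chr10:128270248-128270547, plus strand: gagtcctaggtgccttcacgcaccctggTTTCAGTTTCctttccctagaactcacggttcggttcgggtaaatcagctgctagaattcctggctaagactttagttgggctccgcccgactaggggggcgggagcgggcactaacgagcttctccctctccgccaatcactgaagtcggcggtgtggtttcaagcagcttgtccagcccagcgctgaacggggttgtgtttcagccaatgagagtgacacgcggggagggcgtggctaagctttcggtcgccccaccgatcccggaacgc
Irf7, chr7:141266375-141266674, minus strand: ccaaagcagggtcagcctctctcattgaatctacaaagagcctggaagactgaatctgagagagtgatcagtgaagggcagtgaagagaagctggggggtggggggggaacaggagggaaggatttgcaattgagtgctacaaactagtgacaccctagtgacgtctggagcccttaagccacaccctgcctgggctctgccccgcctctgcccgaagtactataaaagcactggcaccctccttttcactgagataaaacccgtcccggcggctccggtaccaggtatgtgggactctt
Irf1, chr11:53769764-53770063, plus strand: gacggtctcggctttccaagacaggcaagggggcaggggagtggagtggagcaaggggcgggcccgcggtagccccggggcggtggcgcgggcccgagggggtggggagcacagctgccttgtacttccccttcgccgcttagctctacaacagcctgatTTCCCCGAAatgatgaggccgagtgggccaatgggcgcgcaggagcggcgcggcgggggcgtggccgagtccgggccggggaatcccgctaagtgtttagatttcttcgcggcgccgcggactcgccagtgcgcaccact
The Stat2 window held the first motif on its other strand, printed here as TTTCAGTTTC, with its first base at position -222, where -1 is the last base before the start. That motif was in 1131 of 32851 RefSeq windows (3.44%), and in none of the windows of the other members. TTCNNNGAA was in 2726 windows (8.30%), among them those of Irf1 (TTCCCCGAA at position -90), Ifnar1 (TTCACGGAA at position -5) and Ifnar2 (TTCCTGGAA at position -214). The windows of Irf7, Irf9, Ifngr1 and Ifngr2 held neither set of letters, which says only that these letters are not in these windows.

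All 4 receptor chains were read in microglia-like cells of every library, and their CA to sham ratios ran between 0.871 and 1.16. Ifnar1, the chain that binds the kinase Tyk2, stood at 61.1 CPM in aged CA and 56.4 CPM in aged sham, and at 56.4 CPM in young CA and 54.9 CPM in young sham. Ifnar2, the chain with the higher affinity for interferon, stood at 269 CPM in aged CA and 268 CPM in aged sham, and at 288 CPM in young CA and 273 CPM in young sham. The type I receptor genes were thus close to level across the 4 libraries: the ratio of aged CA to aged sham was 1.08 (1.02 to 1.15) for Ifnar1 and 1.01 (0.979 to 1.03) for Ifnar2, and that of young CA to young sham was 1.03 (0.984 to 1.07) for Ifnar1 and 1.05 (1.03 to 1.07) for Ifnar2.

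In the receptor for interferon gamma, Ifngr1 was lower after CA at both ages, and Ifngr2 was higher in young mice. Ifngr1, the ligand-binding chain, stood at 528 CPM in aged CA and 590 CPM in aged sham, and at 559 CPM in young CA and 642 CPM in young sham. Both CA libraries were below both sham libraries, with ratios of 0.893 (0.877 to 0.91) in aged and 0.871 (0.86 to 0.882) in young mice. Ifngr2, the chain that completes the signalling receptor, stood at 245 CPM in aged CA and 244 CPM in aged sham, and at 243 CPM in young CA and 210 CPM in young sham. Young sham was the lowest library, and the CA to sham ratio was 1.004 (0.977 to 1.032) in aged and 1.16 (1.13 to 1.18) in young mice. When barcodes with any UMI of a monocyte marker were left out of the class, the lower Ifngr1 after CA shrank on the log2 scale to -0.07 in aged mice, against -0.16 with all barcodes, and to -0.03 in young mice, against -0.20. With trimmed-mean (TMM) scaling factors Ifngr1 was at log2 -0.03 in aged and -0.02 in young mice, and the other chains were higher after CA, between 0.14 (Ifngr2) and 0.25 (Ifnar1) in aged and between 0.21 (Ifnar1) and 0.38 (Ifngr2) in young mice.

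**Figure D1:**
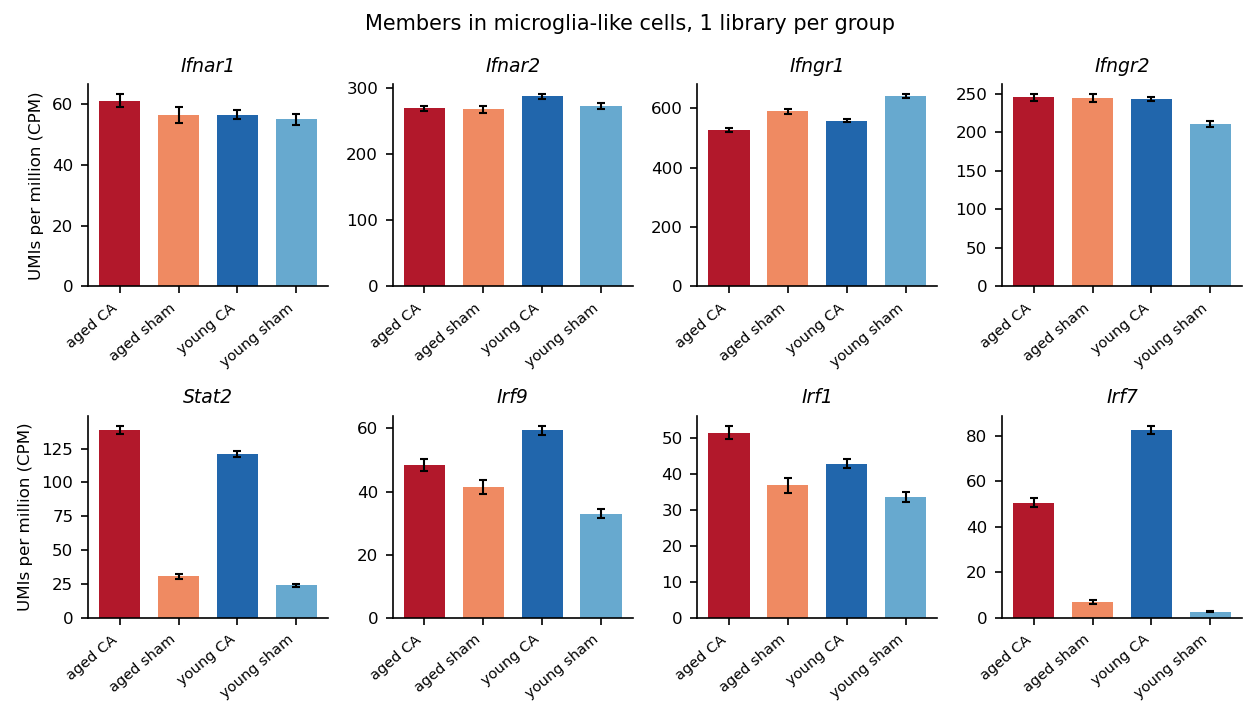
Level of each gene in microglia-like cells of the 4 libraries (bars, CPM; error bars, exact Poisson 95% counting intervals; each panel has its own axis from 0). The receptor genes are near level, while Stat2 at 139 and 121 CPM and Irf7 at 50.6 and 82.7 CPM in the aged and young CA libraries stand far above their shams.

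Stat2, the subunit that carries the activating domain of the complex, was the receptor-proximal gene with a large difference. It stood at 139 CPM in aged CA and 30.5 CPM in aged sham, and at 121 CPM in young CA and 24.0 CPM in young sham. Both CA libraries were high and both shams low, and the ratio was 4.55 (4.26 to 4.86) in aged and 5.05 (4.79 to 5.33) in young mice. That placed Stat2 above 98.8% of the 10847 genes compared in aged and above 98.3% of the 10675 genes compared in young microglia-like cells, counting genes with a mean of at least 5 CPM and at least 20 UMIs over the pair of libraries.

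Irf9, the subunit of the same complex that recognises DNA, differed less and not alike at both ages. It stood at 48.5 CPM in aged CA and 41.3 CPM in aged sham, and at 59.3 CPM in young CA and 33.0 CPM in young sham. The young libraries were thus the outermost, with a CA to sham ratio of 1.80 (1.71 to 1.89), against 1.17 (1.098 to 1.25) in aged mice. Reads of Irf9 cannot be fully told apart from those of Rnf31, which overlaps it on the same strand, and Rnf31 had ratios of 1.07 in aged and 1.32 in young mice.

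Irf1, a factor known for its part in the response to interferon gamma, was modestly higher after CA at both ages. It stood at 51.4 CPM in aged CA and 36.7 CPM in aged sham, and at 42.8 CPM in young CA and 33.6 CPM in young sham. Both CA libraries were above both sham libraries, with ratios of 1.40 (1.31 to 1.498) in aged and 1.27 (1.21 to 1.34) in young mice.

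Irf7, the factor that amplifies type I interferon production, had the largest difference of the 8 genes. It stood at 50.6 CPM in aged CA and 6.77 CPM in aged sham, and at 82.7 CPM in young CA and 2.74 CPM in young sham. The ratio was 7.47 (6.52 to 8.60) in aged mice, above 99.3% of the genes compared, and 30.1 (26.0 to 35.2) in young mice, above 99.8%. The young libraries thus held both the highest and the lowest level of Irf7. Phrf1, which overlaps Irf7 on the opposite strand, had ratios of 1.08 in aged and 1.01 in young mice.

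Monocyte markers moved with Irf7 in the microglia-like class. The 10 genes of the monocyte list together stood at 72.2 CPM in aged CA, 32.8 CPM in aged sham, 238 CPM in young CA and 15.7 CPM in young sham, with 1, 1, 0 and 1 of them at 0. The same order of libraries was seen for Fn1, a fibronectin gene on that list, at 49.8 CPM in aged CA, 0.695 CPM in aged sham, 171 CPM in young CA and 0.533 CPM in young sham. Without every barcode that held a UMI of the list, 3893 microglia-like barcodes remained in aged CA, 5257 in aged sham, 5554 in young CA and 7644 in young sham. Irf7 then stood at 36.4 CPM in aged CA and 5.14 CPM in aged sham, and at 54.0 CPM in young CA and 2.07 CPM in young sham. Its log2 ratio was 2.82 in aged mice, against 2.90 with all barcodes, and 4.71 in young mice, against 4.91. Stat2 was at log2 2.12 in aged mice, against 2.18 with all barcodes, and at 2.36 in young mice, against 2.34. That alternative was chosen after seeing the data.

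**Figure D2:**
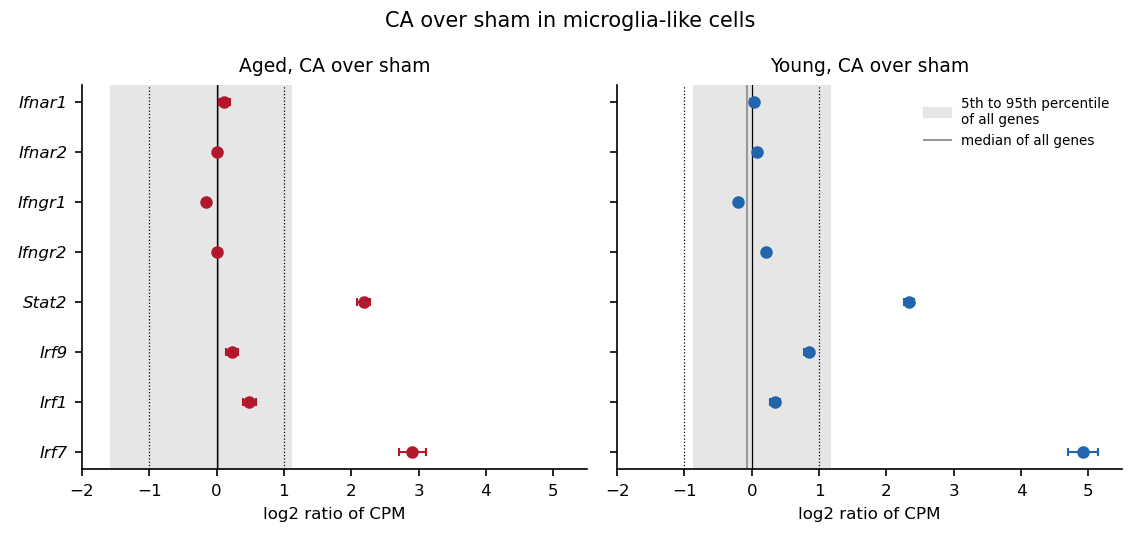
Log2 ratio of CA to sham in microglia-like cells of aged (left) and young (right) mice (points, ratio of CPM; bars, 95% counting intervals; grey band, the 5th to 95th percentile of all genes compared; dotted lines, 2-fold). Stat2 at 2.18 and 2.34 and Irf7 at 2.90 and 4.91 lie outside the band at both ages, and the other 6 genes lie inside it.

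Counted together, 2 of 8 members, Stat2 and Irf7, were at least 2-fold higher after CA in aged microglia-like cells and 0 were 2-fold lower. Among all genes compared, 6.16% were 2-fold higher and 10.2% 2-fold lower, which was 668 and 1103 genes, so that 37.7% of the genes past 2-fold were higher. In young mice the same 2 of 8 were higher and 0 lower. The background there was 6.39% higher (682 genes) and 3.41% lower (364 genes), of which 65.2% were higher. As the members were chosen with earlier results of these data known, their counts stand as a description. The median log2 ratio of the members was 0.17 in aged mice, against 0.02 over all genes, and 0.28 in young mice, against -0.07. These splits depend on scaling: with TMM factors all log2 ratios shift up by 0.13 in aged and 0.17 in young mice, the counts become 912 higher and 913 lower in aged mice (49.97% higher) and 920 higher and 211 lower in young mice (81.3% higher), and Irf9 in young mice passes 2-fold at log2 1.02, against 0.84.

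The size of the CA difference was then set side by side at both ages. For Irf7 in microglia-like cells the log2 ratio in aged mice minus that in young mice was -2.01 (-2.30 to -1.72), and 0.681% of 10424 genes had a difference further in that direction. For Irf9 it was -0.62 (-0.73 to -0.50), with 10.3% of genes lower. Stat2 (-0.15), Ifngr2 (-0.20) and Irf1 (0.14) were closer together. With 1 library per group none of these differences between ages was tested, and the aged sham library, on which every aged ratio rests, was the one of low depth and high haemoglobin.

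Age was also compared within each surgery. Between the sham libraries 0 of the 7 members above the level filter reached 2-fold, beside a background of 3.69% of genes higher and 0.222% lower in aged mice. Stat2 was 1.27-fold higher in aged sham than in young sham and Irf9 1.25-fold higher. Irf7 lay just under the filter, and its ratio was 2.47 (2.02 to 3.03). Between the CA libraries 0 of 8 reached 2-fold, beside 2.36% of genes higher and 3.6% lower in aged mice. Here Irf7 was lower in aged CA than in young CA, at a ratio of 0.612 (0.586 to 0.639), and so was Irf9, at 0.817, while Irf1 was higher, at 1.20, and Stat2 at 1.15. By these summed levels Irf7 was higher in aged than in young mice after sham surgery and lower in aged than in young mice after CA. The sham levels, on which the folds of Irf7 after CA also rest, were low, and shares of thinned cells did not separate them from neuron-like barcodes. The receptor genes ranged between 0.92 and 1.16 in aged sham over young sham and between 0.936 and 1.08 in aged CA over young CA.

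Other classes held fewer cells and wider intervals, but each member had its own order of classes. Ifnar2 was highest in border-associated macrophage-like cells, the macrophages of the brain's membranes and vessels, in all 4 libraries (274 to 364 CPM), and its interval overlapped that of microglia-like cells in both CA libraries but in neither sham library. Ifngr2 was highest in microglia-like cells in all 4 libraries (210 to 245 CPM) and lowest or near lowest in T or NK-like cells (16.1 to 22.9 CPM). Ifngr1 was highest in T or NK-like cells in 3 libraries, while B-like cells stood at 99.6 CPM in aged CA, 60.5 CPM in aged sham and 111 CPM in young sham. Neuron-like barcodes were low for most members, at 14.1 to 23.7 CPM for Ifnar1, 1.12 to 5.66 CPM for Irf1 and 0.446 to 4.21 CPM for Irf7, but not always lowest. Oligodendrocyte-like barcodes had 0 CPM of Irf7 in aged CA and aged sham. Stat2 was lower in T or NK-like cells of aged CA (29.1 against 41.8 CPM) and in neutrophil-like cells of young CA (7.99 against 36.0 CPM) than in neuron-like barcodes.

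Irf7 had the widest range of levels over classes of the 8 genes. Monocyte-like cells held 307 CPM in aged CA, 107 CPM in aged sham, 890 CPM in young CA and 286 CPM in young sham, from 63, 21, 329 and 16 cells. In young CA dendritic-like cells came next at 509 CPM (51 cells), then T or NK-like cells at 185 CPM, and then microglia-like cells at 82.7 CPM and border-associated macrophage-like cells at 64.9 CPM, whose intervals overlap. The split of dendritic-like from monocyte-like cells rests on a reference level of the dendritic markers taken from 2 barcodes. In young sham the order differed, with border-associated macrophage-like cells at 80.4 CPM and T or NK-like cells at 52.3 CPM, which overlap, above microglia-like cells at 2.74 CPM. Monocyte-like cells were 3.25% of kept barcodes in young CA yet gave 36.4% of all Irf7 UMIs, and microglia-like cells gave 52.6%. In aged CA those shares of Irf7 UMIs were 14.2% and 74.6%. Of the other members, microglia-like cells held between 71.8% and 96.4% of UMIs in any library.

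**Figure D3:**
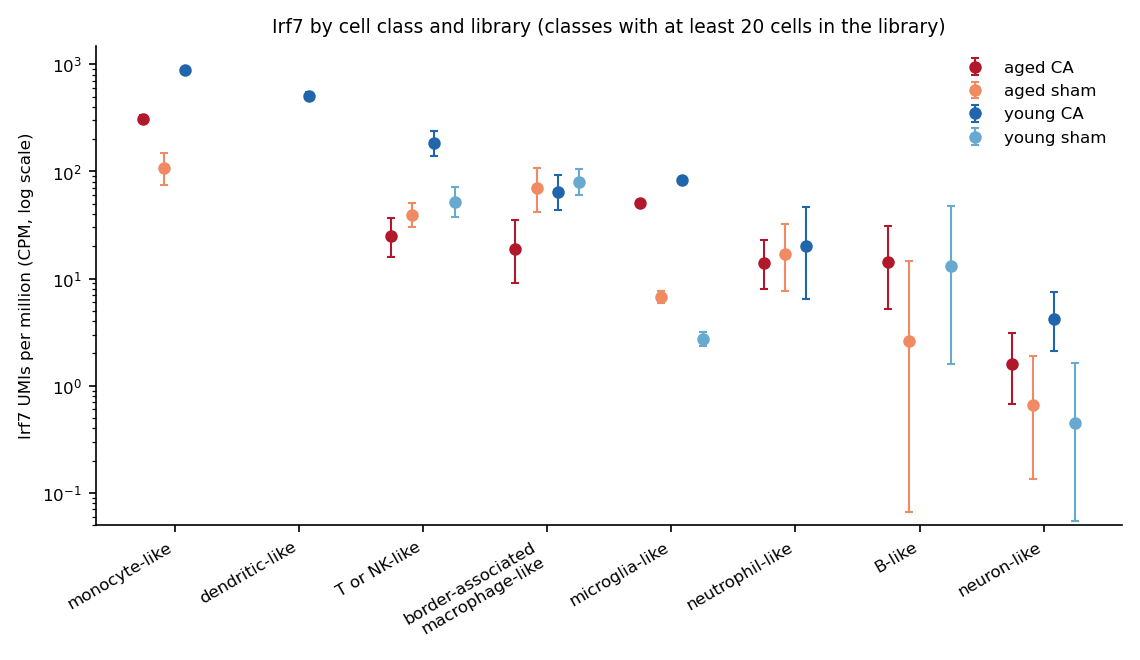
Irf7 level by class (log scale, CPM) in each library where the class had at least 20 cells, with exact Poisson 95% counting intervals as bars. Monocyte-like cells of young CA at 890 CPM stand highest, and the microglia-like class spans 2.74 CPM in young sham to 82.7 CPM in young CA.

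Border-associated macrophage-like cells, 58 in aged CA, 26 in aged sham, 55 in young CA and 71 in young sham, gave few UMIs of each member. Irf7 stood at 19.0 CPM in aged CA and 69.4 CPM in aged sham, and at 64.9 CPM in young CA and 80.4 CPM in young sham. The ratio was 0.274 (0.114 to 0.618) in aged mice, from 10 and 19 UMIs, and 0.807 (0.493 to 1.30) in young mice. Irf9 was lower in aged CA as well, at 28.5 CPM against 98.7 CPM in aged sham, a ratio of 0.289 (0.143 to 0.563). In young mice Irf1 was lower, at 44.7 CPM in CA and 99.3 CPM in sham (0.45, 0.258 to 0.755), while Stat2 was at 105 CPM in CA and 55.2 CPM in sham (1.91, 1.20 to 3.04). Counted at 2-fold, 0 members were higher and 2 lower in aged mice, beside a background of 11.6% of genes higher and 10.9% lower, and 0 were higher and 1 lower in young mice, beside 4.76% and 5.22%. With a looser marker gate (75 cells in aged CA and 40 in aged sham), Irf7 in aged mice was at log2 -0.999, just short of 2-fold, against -1.87, Irf7 in young mice turned to 0.60, against -0.31, and Irf1 in young mice was at -0.42, against -1.15. Stat2 in young mice passed 2-fold under that gate, at log2 1.12, against 0.93. Markers of other cells moved in this class too: the 10 monocyte markers together stood at 104 CPM in aged CA, 322 CPM in aged sham, 302 CPM in young CA and 252 CPM in young sham, with 3, 6, 5 and 6 of them at 0. The 12 microglial markers, 0 of them at 0, stood at 1514 CPM in aged CA, 4056 CPM in aged sham, 3270 CPM in young CA and 4884 CPM in young sham, and the part of either list in the ratios was not tested.

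T or NK-like cells, 108 in aged CA, 187 in aged sham, 33 in young CA and 55 in young sham, differed from microglia-like cells in the receptor for interferon gamma. Ifngr1 stood at 1176 CPM in aged CA and 661 CPM in aged sham, and at 989 CPM in young CA and 561 CPM in young sham. Both CA libraries were above both sham libraries, at ratios of 1.78 (1.63 to 1.93) in aged and 1.76 (1.52 to 2.05) in young mice, while Ifngr2 in these cells stood at 16.1 to 22.9 CPM. Under a looser marker gate Ifngr2 was at log2 0.83 in aged mice, against 0.10, and at 1.01, past 2-fold, in young mice, against 0.30. Under a stricter gate (30 cells in young CA and 50 in young sham) Ifngr1 in young mice passed 2-fold at log2 1.04, against 0.82. Irf7 stood at 24.9 CPM in aged CA and 39.5 CPM in aged sham, and at 185 CPM in young CA and 52.3 CPM in young sham, which gave 0.63 (0.377 to 1.02) in aged and 3.53 (2.30 to 5.45) in young mice. Stat2 stood at 29.1 CPM in aged CA and 26.2 CPM in aged sham, and at 106 CPM in young CA and 44.3 CPM in young sham, a ratio of 2.38 (1.42 to 3.997) in young mice. Young CA was thus the library with high Irf7 and Stat2 in these cells.

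At 2-fold, 2 of 7 members were higher in T or NK-like cells of young mice after CA and 0 lower, beside a background of 4.35% of genes higher and 8.71% lower. In aged mice 0 of 8 passed in either direction, beside 5.7% and 12.2%. Between the CA libraries 4 of 8 (Stat2, Irf1, Irf7 and Irf9) were 2-fold lower in aged mice and 0 higher, beside 10.6% of genes lower and 9.6% higher, and Irf7 had a ratio of 0.135 (0.0800 to 0.221). No alternative processing was run for that pair of libraries in this class. The class joins T cells and natural killer cells, whose proportions were not compared between libraries. Its 9 natural killer markers together stood at 326 CPM in aged CA and 554 CPM in aged sham. In young mice they stood at 3204 CPM in CA and 2174 CPM in sham. The 11 T cell markers stood at 3035 CPM in aged CA and 6863 CPM in aged sham, and at 4256 CPM and 5951 CPM in young CA and young sham. The part of either list in the ratios was not tested.

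**Figure D4:**
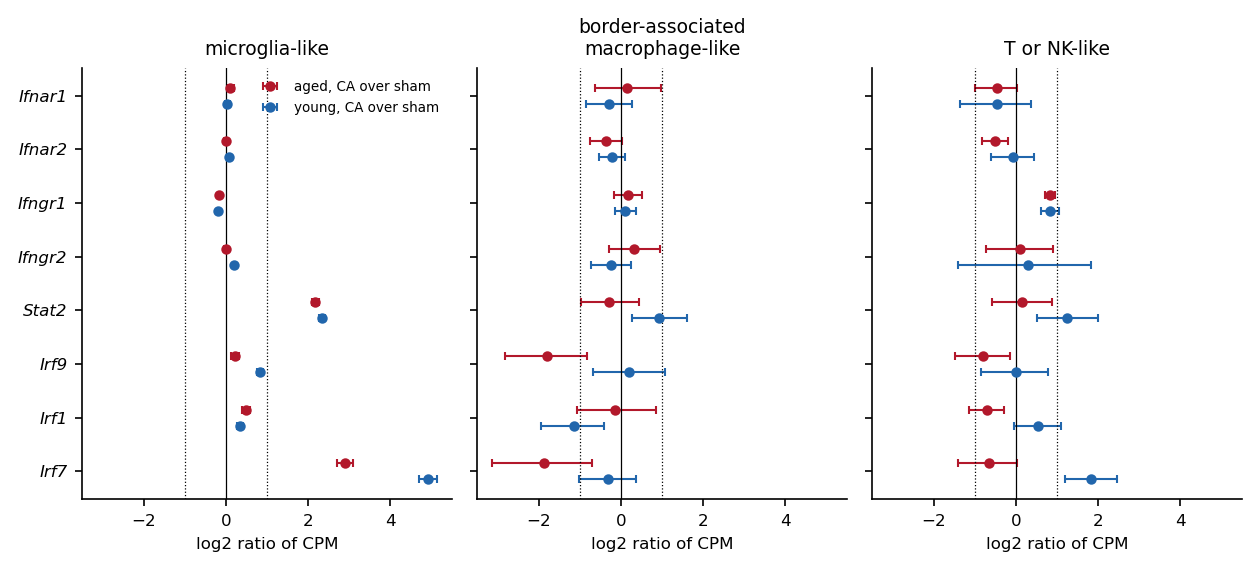
Log2 ratio of CA to sham for the 8 genes in microglia-like, border-associated macrophage-like and T or NK-like cells (red, aged; blue, young; bars, 95% counting intervals; dotted lines, 2-fold). Irf7 is at 2.90 and 4.91 in microglia-like cells but at -1.87 and -0.31 in border-associated macrophage-like cells in aged and young mice (-0.999 and 0.60 under a looser gate), and Ifngr1 is above 0 in T or NK-like cells at both ages.

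Monocyte-like cells could be compared in aged mice and between the CA libraries, since young sham held 16. In aged mice Stat2 stood at 154 CPM in CA and 64.1 CPM in sham (2.40, 1.53 to 3.93), and Irf7 at 307 CPM in CA and 107 CPM in sham (2.87, 2.04 to 4.17). These were the 2 of 8 members at least 2-fold higher, with 0 lower, beside a background of 11.7% of genes higher and 14.2% lower. The neutrophil markers stood at 13192 CPM in monocyte-like cells of aged CA, against 154 to 213 CPM in the other libraries, and their part in these ratios was not tested. Between the CA libraries Irf7 (0.345, 0.315 to 0.377) and Irf9 (0.457, 0.355 to 0.582) were 2-fold lower in aged mice and 0 members higher, beside 10.6% of genes lower and 6.39% higher. Irf9 fell short of 2-fold as a mean over cells (log2 -0.92) and without the deepest barcodes (-0.95), against -1.13. Ifngr1 went the other way in that pair, at 349 CPM in aged CA and 285 CPM in young CA.

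In the remaining immune classes of aged mice the calls rested on few UMIs. Neutrophil-like cells had 1 of 8 members 2-fold higher, Stat2 at 36.8 CPM in CA and 11.2 CPM in sham (3.27, 1.38 to 9.42), beside 10.8% of genes higher and 11.5% lower. B-like cells had 1 of 7 higher, Ifnar2 at 75.9 CPM in CA and 31.6 CPM in sham (2.40, 1.21 to 5.13). They had 1 lower, Irf9 at 11.9 CPM in CA and 47.3 CPM in sham (0.25, 0.0727 to 0.70). The background was 8.97% of genes higher and 16.1% lower. The 10 B cell markers, among them immunoglobulin genes, stood at 120842 CPM in B-like cells of aged CA and 16895 CPM in aged sham. Their part in these ratios was not tested.

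Sums over a class do not say how many cells carried a gene, so each cell was also thinned to 3000 UMIs and the share of cells with a UMI was counted. In microglia-like cells Irf7 was seen in 9.99% in aged CA, 1.91% in aged sham, 17.5% in young CA and 0.753% in young sham. Without thinning the shares were 23.3%, 2.83%, 36.0% and 1.49% in that order. The thinned shares used 4344, 3143, 7654 and 6505 cells with median depths of 11495, 8131, 11148.5 and 8839 UMIs, and left out 561, 2783, 1611 and 1724 shallower cells. Neuron-like barcodes, taken as a background, had 0 of 144 in aged CA (exact 95% interval up to 2.53%), 1 of 191 in aged sham (0.524%, up to 2.88%), 0 of 86 in young CA (up to 4.20%) and 0 of 104 in young sham (up to 3.48%), at median depths of 32158, 12103, 28372.5 and 39214 UMIs. The microglial shares in both sham libraries lie inside those intervals, so that shares of cells do not separate them from neuron-like barcodes, while both CA shares lie above them. The summed levels do separate them, with Irf7 at 6.77 CPM (5.91 to 7.72) in microglia-like cells and 0.653 CPM (0.135 to 1.91) in neuron-like barcodes of aged sham, and at 2.74 CPM (2.35 to 3.18) and 0.446 CPM (0.0541 to 1.61) in those of young sham. Neuron-like barcodes were not free of Irf7 after CA, at 1.58 CPM (0.682 to 3.11) in aged CA and 4.21 CPM (2.10 to 7.53) in young CA. Without thinning, 3.64% of them in aged CA, 1.05% in aged sham, 9.80% in young CA and 1.74% in young sham had a UMI.

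Stat2 by the same measure was seen in 30.2% of microglia-like cells in aged CA, 8.69% in aged sham, 27.1% in young CA and 6.56% in young sham. In neuron-like barcodes it was seen in 9.03%, 7.33%, 8.14% and 6.73% in that order. The shares in sham microglia-like cells were thus close to those in neuron-like barcodes, and the shares in CA cells above them. By summed levels Stat2 stood at 30.5 CPM in microglia-like cells and 22.2 CPM in neuron-like barcodes of aged sham, without overlap of intervals. In young sham they stood at 24.0 and 22.8 CPM, with intervals that overlap. Neuron-like barcodes were themselves higher after CA, at 41.8 CPM (36.4 to 47.9) in aged CA and 36.0 CPM (29.1 to 44.0) in young CA. Microglia-like cells of these CA libraries stood at 139 and 121 CPM. Of monocyte-like cells, 23 of 63 in aged CA (36.5%, 24.7 to 49.6%) and 4 of 15 in aged sham (26.7%, 7.79 to 55.1%) had a UMI of Irf7, and 247 of 318 in young CA (77.7%, 72.7 to 82.1%) and 7 of 16 in young sham (43.8%, 19.8 to 70.1%).

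**Figure D5:**
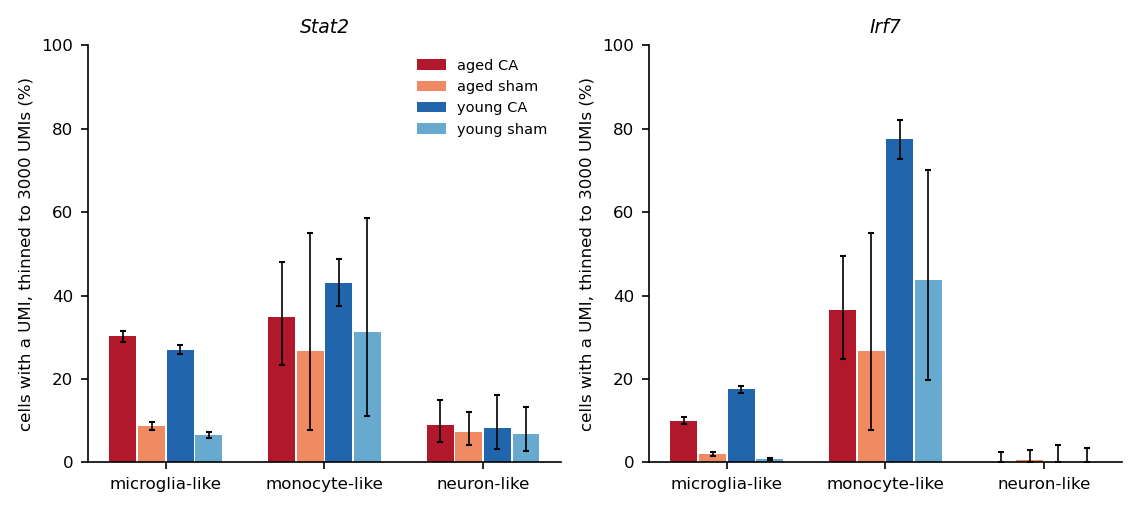
Share of cells with at least 1 UMI of Stat2 (left) and Irf7 (right) after thinning each cell to 3000 UMIs, with exact 95% binomial intervals as bars. Irf7 was seen in 9.99% of aged CA and 17.5% of young CA microglia-like cells, against 1.91% in aged sham and 0.753% in young sham.

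The rest of the pathway was read in microglia-like cells from lists by role. Of the 15 type I interferon target genes above the level filter in aged mice, 14 were at least 2-fold higher after CA, between Oasl1 at 39.99-fold and Trim30a at 1.62-fold, with a median log2 ratio of 2.89. In young mice 15 of 15 were, between Oasl1 at 81.1-fold and Herc6 at 2.02-fold, with a median of 4.14. Targets known mainly from interferon gamma passed 2-fold in 7 of 12 in aged mice (Gbp2, a guanylate-binding protein, at 7.71-fold, and Psmb9, an immunoproteasome subunit, at 0.67) and in 3 of 10 in young mice (Irgm1 at 3.31-fold, Irgm2 at 1.11). The target lists were chosen with earlier results of these data known, and their counts stand as a description, to be read with those of the lists that follow beside the 6.16% of all genes 2-fold higher and 10.2% lower in aged mice and the 6.39% higher and 3.41% lower in young mice.

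The steps between the receptors and these targets were read next. None of the 3 receptor kinases passed 2-fold: Jak2 was at 1.29 and Jak1 at 1.05 in aged mice, and Jak2 at 1.01 and Jak1 at 0.96 in young mice. Among other STAT genes, Stat3 was past 2-fold in aged mice at 2.16-fold, and Stat5b was at 0.813 in aged and 0.826 in young mice. None of the 4 other IRF genes passed, with Irf5 at 1.02 and Irf8, a factor of microglial identity, at 0.703 in aged mice, and Irf2 at 1.06 and Irf8 at 0.92 in young mice. Il10rb, the receptor chain encoded between Ifnar2 and Ifnar1, was at 0.855 in aged and 0.984 in young mice.

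Inhibitors and sensors of the pathway included some of its larger differences. Of the inhibitors 2 of 8 passed in aged mice, with Socs3, a suppressor of cytokine signalling, at 9.67-fold and Pias1 at 0.727, and 2 of 7 passed in young mice, with Usp18, which dampens the type I receptor at Ifnar2, at 11.5-fold and Pias1 at 0.851. Of the sensors and adaptors 4 of 12 were higher and 1 lower in aged mice, from Zbp1, a sensor of nucleic acid, at 8.91-fold to Tmem173, which encodes STING, at 0.369. In young mice 3 of 11 were higher and 0 lower, from Zbp1 at 32.4-fold to Tmem173 at 0.624. Between the sham libraries 4 of 9 type I targets were 2-fold higher in aged mice, beside 3.69% of all genes (Ifit2 at 2.54, Herc6 lowest at 1.10). Between the CA libraries, beside 2.36% of all genes higher and 3.6% lower, 1 of 17 was higher (Rsad2 at 2.77) and 1 lower (Oas2 at 0.238), and 3 of 12 interferon gamma targets were higher (Gbp5 at 2.96, Psmb9 lowest at 0.543).

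Transcripts of the ligands were rare and unevenly spread. Ifnb1, the gene of interferon beta, gave 631 UMIs in microglia-like cells of aged CA, 0 in aged sham, 21 in young CA and 0 in young sham. Against 3 UMIs as the floor of a library without any, Ifnb1 was at least 128-fold higher in aged CA than in aged sham and at least 4.47-fold higher in young CA than in young sham. The aged CA count came from 56 of 4905 cells, with 391 UMIs in 1 cell and 533 in the 10 highest. The young CA count came from 4 cells with 18 UMIs in 1 of them, so that its bound rests on that cell: the 3 UMIs of the others equal the floor. Over all kept barcodes of aged CA, Ifnb1 gave 818 UMIs, so it was not confined to microglia-like cells. It had 0 UMIs there in T or NK-like, monocyte-like and border-associated macrophage-like cells, and the remainder lay in barcodes outside these classes. Ifna2 gave 60 UMIs in aged CA and 0 elsewhere. Ifng, the gene of interferon gamma, lay mostly in T or NK-like cells, with 13 of 18 UMIs in aged CA, 90 of 105 in aged sham, 11 of 16 in young CA and 23 of 35 in young sham. The library with most Ifnb1, aged CA, was not the library with the highest Irf7.

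Finally, the genes closest to each member were sought over the 23 combinations of class and library with at least 30 cells, as Pearson correlations of log2(CPM + 1) over 12254 genes. The points share libraries, depth and class make-up, so the values describe likeness alone. Irf7 was nearest to Ifit3b, Ifit3 and Ifit1 (r 0.967, 0.963 and 0.962), 3 antiviral genes of the type I response. Irf9 was nearest to Dtx3l, Trim30d and Uba7 (0.932, 0.919 and 0.917), and Stat2 to Tubb6, Slfn5 and Gsto1 (0.889, 0.875 and 0.872). Irf1 was nearest to Atp5e, Chchd2 and Elob (0.984, 0.983 and 0.982), genes of mitochondria and of transcript elongation. Among the receptor chains, Ifnar1 was nearest to Fam89b, Ufc1 and Hras (0.939, 0.936 and 0.932), Ifnar2 to Mfsd5, Itm2b and Cyth4 (0.953, 0.952 and 0.949), Ifngr1 to Tpst2, Trim14 and Adcy7 (0.924, 0.920 and 0.912), and Ifngr2 to Ctsh and BC028528 (0.966 and 0.954). The genes named depended on the measure. By Spearman correlation those of Irf7 ranked 3, 1 and 4, and those of Stat2 ranked 4, 3 and 14. Those of Irf9 ranked 35, 7 and 57, those of Irf1 ranked 25, 5 and 42, and Mfsd5 ranked 131 for Ifnar2. Between members, r ranged between 0.41 for Ifngr1 with Stat2 and 0.88 for Ifnar2 with Ifngr1, and it was 0.81 for Stat2 with Irf7 and 0.61 for Stat2 with Irf9.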

How the data were processed

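CD45-sorted brain cells of 4 groups were measured by droplet-based single-cell RNA sequencing (10x Genomics 3′ chemistry, per the labels' protocols), with 1 library pooled from 3 mice per group and no replicate. What the authors deposited are raw UMI counts by gene and barcode. The submitters' processing notes name Cell Ranger 7.1.0 and the mm10 build. The gene annotation, the counting of intronic reads and the calling of cells are not given in the sources used here. No matrix held a barcode under 500 UMIs. Gene positions came from GENCODE M21 (GRCm38, of which mm10 is another name), and promoter windows from RefSeq on GRCm38.p6, where all 8 members were matched by symbol.

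From the counts, barcodes under 500 UMIs, under 200 genes or above 10% mitochondrial UMIs were left out, which kept 5888 (aged CA), 7538 (aged sham), 10131 (young CA) and 8730 (young sham). Each barcode was scored on 14 marker lists by the share of its UMIs in a list, divided by the median share of barcodes that held at least 70% of the list's markers. For the dendritic list that median came from 2 barcodes. A barcode joined a class at 20% of the reference level or more with at least 3 markers, if no second lineage reached 50% of the first. The monocyte and dendritic lists counted as the same lineage, and a barcode went to the list on which it scored higher. This rule was set after seeing the data, while the markers were not changed. Barcodes of 2 lineages were dropped as possible doublets and no doublet caller was run. For each class, the UMIs of a library were added up and given as CPM (UMIs per 1000000), with exact Poisson intervals. Ratios have exact conditional binomial intervals and were formed where both libraries held at least 20 cells, and a ratio of at least 2-fold was counted as a call for genes with a mean of at least 5 CPM and at least 20 UMIs in the pair of libraries. The calculation was tested on simulated data. Shares of cells have exact Clopper-Pearson intervals. A floor is 3 counts. UMIs stand for captured molecules, so intervals and floors cover counting error only.

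All 8 members are named in every microglia-like comparison, with the highest and the lowest gene of each pathway list and the 3 most alike genes of each member. Genes that this rule would name but that are missing from the text are not reported here. The members and lists were chosen with earlier results of these data known. Computation used Python 3.11.15, numpy 2.4.6, scipy 1.17.1, pandas 2.3.3 and matplotlib 3.10.9. TMM factors came from edgeR 4.0.16 in R 4.3.3. Likeness between genes was also ranked by Spearman correlation. Alternatives were TMM scaling, no low-count filter, a pseudocount of 1 CPM, minimum depths of 1000 and 5000 UMIs, a mitochondrial limit of 20%, stricter and looser gates, means over cells, and leaving out the deepest barcodes (0.8% per 1000), barcodes with 1% haemoglobin UMIs and microglia-like barcodes with a monocyte-marker UMI.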

Additional observations from a re-analysis of the deposited data

Results flagged for a closer look

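Several members differed between CA and sham in one direction in microglia-like cells and in the other direction in another class, with counting intervals on opposite sides of no difference. None of these differences between classes was tested, since each group is 1 library. Ifngr1 was higher after CA in T or NK-like cells, at log2 0.83 in aged mice and 0.82 in young mice. It was at -0.16 and -0.20 in microglia-like cells of aged and young mice. Over 12 alternatives that microglia-like value ran between -0.18 and -0.03 in aged mice and between -0.25 and -0.02 in young mice. In T or NK-like cells of aged mice Irf1 was at log2 -0.72 and Irf9 at -0.79, against 0.48 and 0.23 in microglia-like cells. In border-associated macrophage-like cells of aged mice Irf7 was at -1.87 and Irf9 at -1.79, against 2.90 and 0.23 in microglia-like cells. In young mice Irf1 was at -1.15 in the border-associated class, against 0.35 in microglia-like cells. Under the looser gate these border-associated values were -0.999 for Irf7, -1.08 for Irf9 and -0.42 for Irf1. Irf9 in B-like cells of aged mice was at -1.997, from 5 UMIs in CA and 18 UMIs in sham. Marker levels within the T or NK-like, border-associated macrophage-like and B-like classes also differed between libraries. Their part in these values was not tested.

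Barcodes that met no marker gate, which entered no comparison of the classes, also carried members at different levels. There were 363 such barcodes in aged CA, 53 in aged sham, 90 in young CA and 43 in young sham. Ratios with an interval wholly above 2 are named first, and no background over all genes was formed. The CA to sham ratio was 3.04 (2.27 to 4.15) for Ifngr1 and 7.21 (3.75 to 15.9) for Stat2 in aged mice. In young mice it was 4.18 (2.36 to 7.96) for Ifngr2 and 15.4 (7.33 to 39.0) for Irf7. Irf7 stood at 283 CPM in young CA and 18.3 CPM in young sham. At the other age Ifngr1 was at 2.03 (1.55 to 2.69) and Stat2 at 2.28 (1.24 to 4.49) in young mice. Ifngr2 was at 1.57 (1.13 to 2.24) and Irf7 at 3.36 (1.88 to 6.59) in aged mice. What these barcodes are was not tested.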

How the results depend on the processing

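No member ratio past 2-fold changed sign under any alternative run, but some calls were gained or lost. Alternatives were run for every microglia-like comparison, and for CA over sham in border-associated macrophage-like and T or NK-like cells. In monocyte-like cells they were run for aged CA over young CA alone. The other comparisons counted above, among them those of neutrophil-like and B-like cells and of monocyte-like cells in aged mice, were not rerun. In microglia-like cells 319 of 384 values over 12 alternatives stayed inside the counting interval of the value reported, 65 lay outside it and 0 reversed a call. Stat2 and Irf7 stayed past 2-fold after CA at both ages under all 12: Irf7 ranged between log2 2.49 and 3.04 in aged and between 4.48 and 5.09 in young mice, and Stat2 between 2.12 and 2.34 in aged and between 2.29 and 2.51 in young mice. Ifnar2 and Ifngr2 in aged CA over aged sham changed sign close to 0 at a minimum of 5000 UMIs (-0.02 and -0.01). In aged sham over young sham, Irf7 made 1 member past 2-fold, against 0, both without the low-count filter (with a pseudocount of 1 CPM) and as a mean over cells, and the count of all genes past 2-fold was 770 without the filter, 180 at a minimum of 5000 UMIs and 811 as a mean over cells, against 423. Without the filter more genes are compared. The cause of the other moves was not tested.

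Smaller classes depended on the gate. Under the looser gate Irf7 in border-associated macrophage-like cells of young mice was at log2 0.60, against -0.31, and Ifngr2 in T or NK-like cells was at 0.83 in aged and 1.01 in young mice, against 0.10 and 0.30. In the same border-associated cells of young mice Stat2 passed 2-fold at 1.12, against 0.93, and Irf1 fell short at -0.42, against -1.15. Under the stricter gate Ifngr1 in T or NK-like cells of young mice passed 2-fold at 1.04, against 0.82. Border-associated macrophage-like cells of aged sham fell under 20 under the stricter gate and gave no value. Irf9 in monocyte-like cells of aged CA over young CA was at -0.92 as a mean over cells and -0.95 without the deepest barcodes, against -1.13. The alternative without monocyte-marker barcodes was chosen after seeing the data. No paired analysis was possible because each group is 1 library and the result comes from no test, and for the same reason no replicate could be left out. Depth limits aged sham most: 2783 of its 5926 microglia-like cells had under 3000 UMIs.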

Other observations

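Within the aged CA library, the 56 microglia-like cells with an Ifnb1 UMI were set beside the other microglia-like cells of that library. Cells of 1 library are not replicates, the intervals cover counting error only, and the cells with Ifnb1 were deeper (median 14451 UMIs against 10577). Irf7 stood at 180 CPM in the Ifnb1 cells and 48.6 CPM in the others, a ratio of 3.69 (3.11 to 4.36). Stat2 was at a ratio of 1.54 (1.32 to 1.80) and Irf1 at 1.41 (1.07 to 1.83). The receptor for interferon gamma was lower in the same cells, with Ifngr1 at 306 CPM against 531 CPM (0.576, 0.506 to 0.652) and Ifngr2 at 0.675 (0.566 to 0.80). Ifnar2 was at 0.865 (0.746 to 0.998). Ifnar1 (0.878, 0.637 to 1.18) and Irf9 (0.881, 0.612 to 1.23) had intervals that include 1.

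Barcodes with markers of more than 1 class, left out of every comparison, held Irf7 at 79.5 CPM in aged CA, 25.7 CPM in aged sham, 449 CPM in young CA and 21.2 CPM in young sham. There were 53, 842, 138 and 124 of them in that order.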
